A study of Mus musculus with 9 samples.

Results

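The mitochondrial ribosomal proteins are the proteins of the ribosome that works inside mitochondria. Their 74 genes were taken from a survey of 12393 genes in the mouse embryonic foregut, as all genes whose only symbol in the array's annotation begins with Mrpl or Mrps and a number. Of these, 47 are Mrpl genes, named for the large subunit, and 27 are Mrps genes, named for the small subunit. RNA came from the mid-foregut of wild-type embryos with 16-20, 21-25 or 26-30 somites, ages that correspond in the labels to embryonic days 8.5, 9.0 and 9.5. Somites are the paired blocks of mesoderm by which young embryos are staged, and the piece of gut dissected lies between the pharyngeal arches and the liver, with the heart and neural tube taken off. Each stage had 3 biological replicates, each a pool of 5 to 10 foreguts on 1 Affymetrix array. The labels name no strain, and all pools carried the same genotype, so somite stage is the 1 labelled variable.

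Mitochondria keep a small genome that encodes a few core subunits of the respiratory chain, together with the ribosomal and transfer RNAs needed to translate them. Every protein of the mitochondrial ribosome is instead encoded in the nucleus, made on cytosolic ribosomes and imported. The small subunit binds and decodes the messenger RNA, and the large subunit joins amino acids and feeds the growing chain to the inner membrane. Some of the proteins descend from the bacterial ancestor, and others were added in the course of mitochondrial evolution. Promoters of nuclear genes for mitochondrial proteins are known to bind factors such as NRF1, the ETS factor GABPA and YY1.

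Signals are given on the linear MAS5 scale, the deposited unit, in which each array was scaled to a common average. Differences are log2 differences between stage means, with their standard error (SE), after a pseudocount of 26.1 was added. They come from 1 limma fit over all 8675 genes above a filter on low signal, with two-sided p-values adjusted by Benjamini-Hochberg over all of those genes at a threshold of 0.05. All 74 mitochondrial ribosomal protein genes passed the filter and were tested. A probe set's level depends on its own sequence, so levels are compared between stages for 1 gene and not between genes.

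The arrays differed in range as well as in stage. The highest signal lay between 27479.8 and 32583.5 on 21-25 somites replicate 1 and on 26-30 somites replicates 1 and 2, and between 43791.6 and 61749.1 on the other 6, so these 3 are called the narrow-range arrays. For the actin control, signal at the 3' end divided by that at the 5' end, a sign of RNA quality, was 25.4 to 36.8 at 16-20 somites, 22.2, 45.3 and 22.4 at 21-25, and 22.0, 20.9 and 32.5 at 26-30. Its 3 lowest values were those of the narrow-range arrays, and its part in the differences below was not tested. The summed signal of 9 heart muscle markers was 18478.4 on 16-20 somites replicate 2 and 2215.4 to 7154.7 on the other arrays. Hepatic markers, with 5 of 7 above the filter, summed to 38105.8 on that array and to 1663 to 9226.8 elsewhere, with Fgb and Apoa1 below the filter. Among foregut endoderm markers 7 of 8 were above the filter, including Foxa2 and Epcam, while Shh gave signals of 0.7 to 38.3 and was below it. Their sum was 9608.3 to 16269.4 at 16-20 somites, 8277.5 to 9136.3 at 21-25 and 8724.5 to 10074.8 at 26-30. The single markers differed: Krt18 gave 2341.2 to 5458.8 at 16-20 somites and 1101.4 to 1642.5 at 26-30. Foxa1, Foxa2, Epcam, Cdh1, Sox2 and Krt8 overlapped between these stages, with Sox2 at 182.3 to 646.5 and 622.5 to 846.2. Of 9 gut mesenchyme markers 6 were above the filter and Foxf1, Tbx4 and Osr1 were not. Summed over the list, the mesenchyme signal was 2911.5 to 3728.1 at 16-20 somites, 4220.1 to 6387.3 at 21-25 and 5063.2 to 6954.2 at 26-30. In this sum every later array lay above every 16-20 somites array. The highest sums, 6387.3, 6954.2 and 6449, were those of the narrow-range arrays. At 26-30 somites each of the 6 markers above the filter also lay above its 16-20 somites range. At 21-25 somites only Pdgfra did so on all 3 arrays. There, Tbx5 and Gli1 gave 27.9 and 75.7 on replicate 2, below all their 16-20 somites values. Primitive erythroid markers, with 6 of 6 above the filter, summed to 36723.2 to 40447 at 16-20 somites, 18019.7 to 36320.9 at 21-25 and 20725.1 to 57724.4 at 26-30. Every later array except 26-30 somites replicate 3 lay below the 16-20 somites range, and the narrow-range arrays were lowest, which is also where the ribosomal protein genes were lowest. The part of cell makeup in the stage differences below was not tested, and in bulk tissue fewer cells of a type cannot be told apart from less RNA per cell.

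Most mitochondrial ribosomal protein genes had lower signal at 26-30 than at 16-20 somites, although no single gene passed the adjusted threshold. The log2 difference was below 0 for 66 of the 74, in a tested set where 49.1% of all genes were below 0. The median over the 74 was −0.46, beside 0.01 over all tested genes, and single genes ran from −1.28 to 0.57. Large-subunit genes had a median of −0.44, with 40 of 47 below 0, and small-subunit genes had a median of −0.54, with 26 of 27 below 0. This difference between the subunits was not tested. In the first step, 21-25 against 16-20 somites, the median was −0.46 and 69 of 74 differences were below 0, against 49.8% of all genes. The medians of that step were −0.42 for the large subunit and −0.58 for the small subunit. Both comparisons use the same 3 arrays at 16-20 somites, so they are not independent of each other.

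Over the whole interval, limma called 0 of the 74 genes and 0% of all genes at the adjusted threshold, and the smallest adjusted p among the 74 was 0.291. At an unadjusted p under 0.05, 18 of the 74 were lower (8 large-subunit and 10 small-subunit genes) and 0 were higher, where 4.85% of all genes were lower and 6.33% higher. In 32 of the 74 (19 large, 13 small) all 26-30 somites arrays lay below all 16-20 somites arrays, beside 10.2% of all genes. The reverse order was met by Mrps2 alone, beside 11.2% of all genes. In the first step limma called 0 of 74, again with 0% of all genes, and the smallest adjusted p was 0.317. There, 28 (14 of each subunit) were lower at an unadjusted p under 0.05 and 0 were higher, beside 5.28% and 5.72% of all genes. No overlap with lower signal at 21-25 somites was seen in 27 genes (14 large, 13 small), beside 7.29% of all genes, and no overlap with higher signal in 0, beside 6.95%.

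The size of these differences varied with the arrays used. Without the 3 narrow-range arrays the median of the 74 over the whole interval was −0.24, with 64 below 0 and 4 lower at an unadjusted p under 0.05, beside 1.84% of all genes. In the first step it was then −0.32, with 59 below 0 and 14 lower, beside 3.41% of all genes. With each array weighted by its fit, 18 of the 74 passed the adjusted threshold over the whole interval (7 large, 11 small, all lower). They were among 725 of all genes that passed, of which 314 were lower and 411 higher. The weights at 26-30 somites were 3.3794 and 1.3435 on the narrow-range replicates 1 and 2 and 0.6687 on replicate 3. The narrow-range arrays thus counted most at that stage. Without 16-20 somites replicate 2, the array with high heart and hepatic markers, the median was −0.41 over the whole interval and −0.42 in the first step. The genes lower at an unadjusted p under 0.05 then numbered 11, beside 2.66% of all genes, and 15, beside 2.92%. Leaving out 16-20 somites replicate 3 gave 15 in the first step, beside 3.1% of all genes, and leaving out 21-25 somites replicate 1 also gave 15, beside 4.8%. Over the whole interval the number was 8 without 26-30 somites replicate 2, beside 2.69% of all genes. It was 29 without 21-25 somites replicate 1 and 27 without 21-25 somites replicate 2, beside 6.55% and 6.22% of all genes, arrays of neither compared stage that enter through the shared estimate of the spread.

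**Figure D1:**
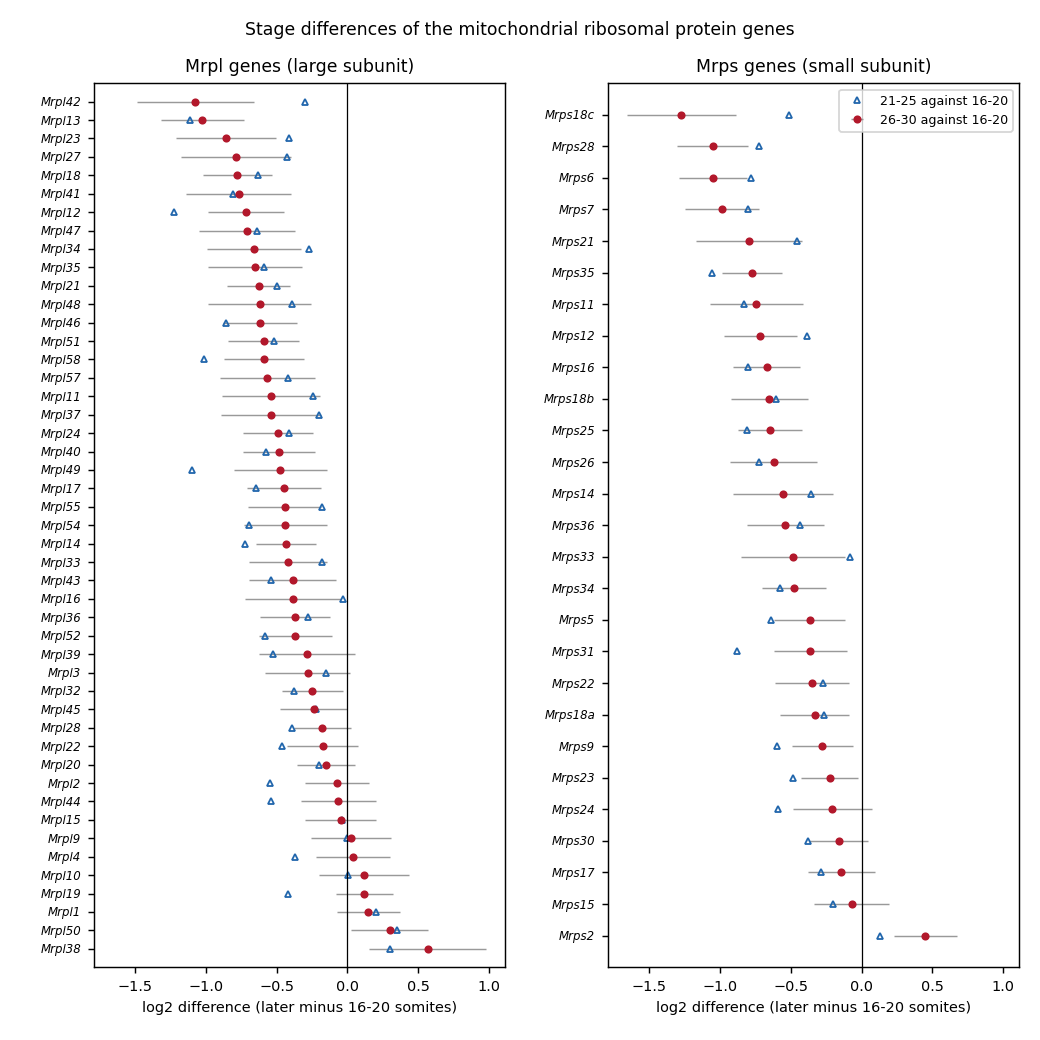
Log2 difference of each of the 47 Mrpl (left) and 27 Mrps genes (right), ordered by the whole interval. Red points show 26-30 minus 16-20 somites with the SE as a bar, blue triangles 21-25 minus 16-20 somites. Points lie left of 0 for 66 of 74 genes over the whole interval and triangles for 69 of 74 in the first step.

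The order of single arrays was followed next. In 17 genes (9 large, 8 small) all 3 arrays at 16-20 somites lay above all 6 later arrays, which was so for 3.98% of all genes, and in 0 genes did they lie below all 6, beside 3.42%. The 9 large-subunit genes were Mrpl12, Mrpl13, Mrpl14, Mrpl21, Mrpl32, Mrpl41, Mrpl46, Mrpl49 and Mrpl58. The 8 small-subunit genes were Mrps6, Mrps7, Mrps9, Mrps16, Mrps25, Mrps26, Mrps28 and Mrps35. Mrpl58 differs in kind from the rest, since its protein is a peptidyl-tRNA hydrolase that releases stalled chains and was built into the large subunit. The wide-range arrays were also set apart: 26-30 somites replicate 3 lay below all 16-20 somites arrays in 39 genes (24 large, 15 small), beside 25.2% of all genes, and above them in 4, beside 24%. Both wide-range 21-25 somites arrays lay below all 16-20 somites arrays in 28 genes (14 of each subunit), beside 11.4% of all genes. They lay above them in 1, Mrpl11, beside 9.3% of all genes.

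**Figure D2:**
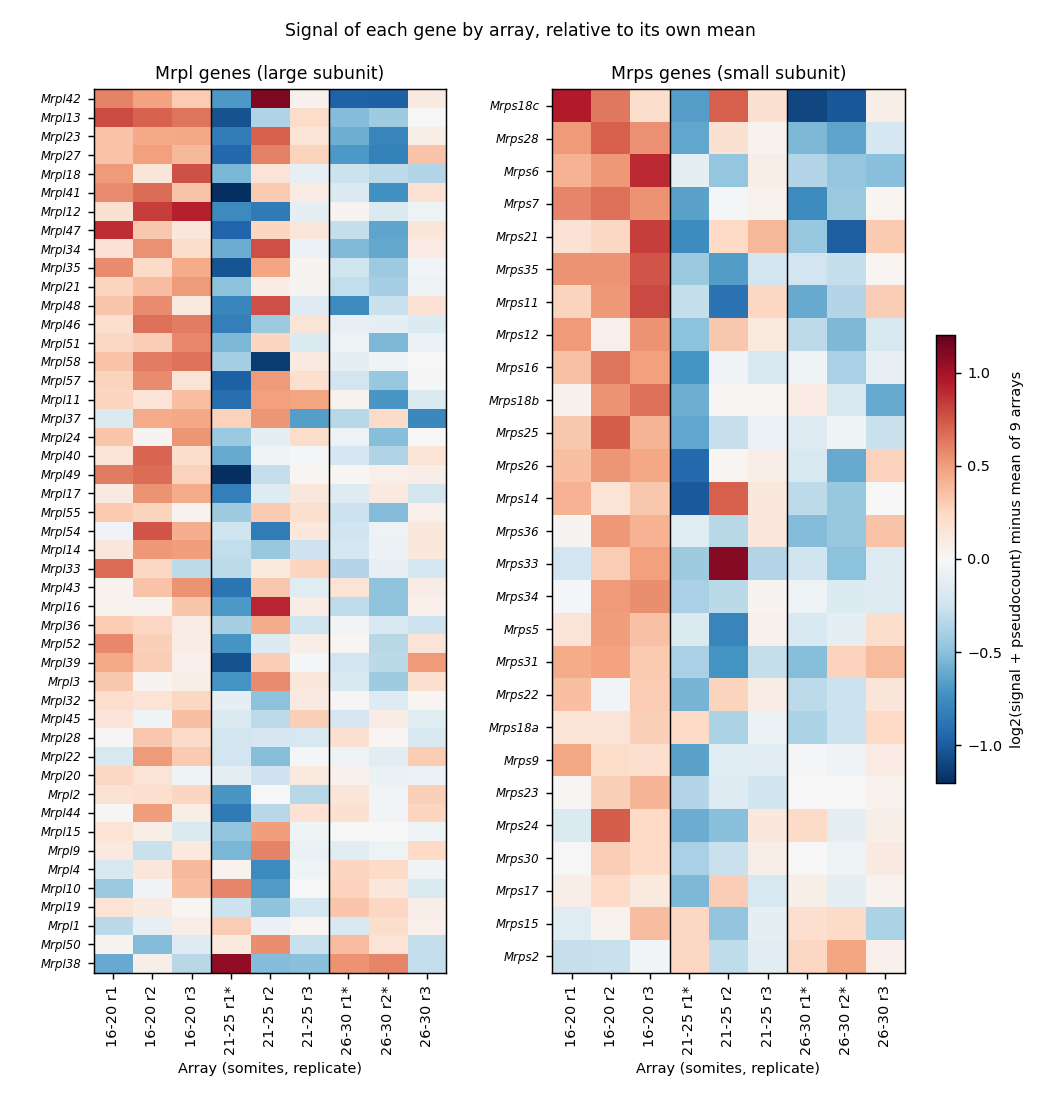
Log2(signal + pseudocount) of each gene on each of the 9 arrays minus the gene's mean over the arrays, with Mrpl genes left and Mrps genes right, in the order of the whole-interval difference; r is the replicate and an asterisk marks a narrow-range array. Red cells fill most of the 3 columns at 16-20 somites, and 21-25 somites replicate 1 was the lowest array for 37 of the 74 genes.

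Among the 8 genes with the smallest p-values of the whole interval 6 were small-subunit genes. Mrps6, the counterpart of bacterial S6, gave signals of 191.1, 207.9 and 276.5 at 16-20 somites, 124.3, 91.6 and 144.3 at 21-25 somites, and 101.8, 91.7 and 88.9 at 26-30 somites. All 16-20 somites arrays were above all later ones, and the 3 arrays at 26-30 somites lay close together. The log2 difference over the whole interval was −1.05 ± 0.24 (SE), with an adjusted p of 0.291 in limma.

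Mrps28, a small-subunit protein, gave 705, 815.1 and 723.8 at 16-20 somites, 306, 553.7 and 502.3 at 21-25, and 326.6, 303.6 and 417.4 at 26-30. No later array reached the 16-20 somites range, and the 3 lowest values were those of the narrow-range arrays. Its difference over the whole interval was −1.05 ± 0.25 (SE), with an adjusted p of 0.291 in limma.

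Mrps7, the counterpart of bacterial S7 in the head of the subunit, gave 1138.9, 1204.1 and 1103.1 at 16-20 somites, 471.9, 743.9 and 771.8 at 21-25, and 435.7, 544.5 and 764.9 at 26-30. The 3 earliest pools were tightly grouped and stood clear of all 6 later ones, with the narrow-range arrays lowest again. The difference was −0.99 ± 0.26 (SE, adjusted p = 0.325 in limma).

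Mrps35, a protein that bacterial ribosomes lack, gave 874.1, 877.4 and 1020.8 at 16-20 somites, 428.7, 365.1 and 508.1 at 21-25, and 502.4, 481.9 and 604.4 at 26-30. Its lowest array was the wide-range 21-25 somites replicate 2, and stages 16-20 and 21-25 did not overlap. In the first step the difference was −1.05 ± 0.21 (SE, adjusted p = 0.317 in limma), and over the whole interval −0.78 ± 0.21 (adjusted p = 0.325).

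Mrps25, also without a bacterial counterpart, gave 608.7, 813.3 and 649.3 at 16-20 somites, 302.6, 394.4 and 456.7 at 21-25, and 428.9, 463 and 394.6 at 26-30. Both later stages lay below the first with no overlap, and they overlapped each other. The first-step difference was −0.81 ± 0.22 (SE, adjusted p = 0.317 in limma), and that of the whole interval −0.65 ± 0.22 (adjusted p = 0.366). Another probe set of Mrps25 differed by −0.07 over the whole interval.

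Mrps18c belongs to a trio of paralogues related to bacterial S18, of which structural work places 18b and 18c in the small subunit and 18a in the large one. Mrps18c gave 1929.3, 1539.2 and 1142.8 at 16-20 somites, 614.5, 1640 and 1124.4 at 21-25, and 449.1, 472.8 and 1036.6 at 26-30. The wide-range array was the highest of the 26-30 somites arrays, still below every 16-20 somites array, and 21-25 somites replicate 2 lay within the 16-20 somites range. Its difference of −1.28 ± 0.39 (SE, adjusted p = 0.351 in limma) was the lowest point estimate of the 74 over the whole interval. The second step, 26-30 against 21-25 somites, gave −0.76 ± 0.39 (adjusted p = 0.998).

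Its paralogue Mrps18b gave 377, 538 and 588.8 at 16-20 somites, 232, 366.7 and 366.1 at 21-25, and 389.1, 313 and 229.9 at 26-30. The 16-20 somites arrays lay above those at 21-25 somites, while 26-30 somites replicate 1 lay inside the 16-20 somites range. Over the whole interval Mrps18b differed by −0.65 ± 0.27 (SE, adjusted p = 0.409 in limma). Mrps18a gave 324.4, 321.5 and 355.6 at 16-20 somites, 342.7, 215.2 and 272.9 at 21-25, and 214.5, 236 and 344.6 at 26-30. Its stages overlapped, and the difference was −0.33 ± 0.24 (adjusted p = 0.609), or 0.04 without the narrow-range arrays. Differences between paralogues were not tested.

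In the large subunit, Mrpl13, the counterpart of bacterial L13, gave 3411.7, 3236.9 and 3094.6 at 16-20 somites, 939.8, 1515.2 and 2297.7 at 21-25, and 1363.9, 1463.1 and 1975.4 at 26-30. The 16-20 somites pools were close together and above all others, and the later pools were widely spread. The difference was −1.03 ± 0.29 (SE, adjusted p = 0.342 in limma) over the whole interval and −1.11 ± 0.29 (adjusted p = 0.317) in the first step. Another of its 3 probe sets differed by −0.14 over the whole interval.

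Mrpl18, whose bacterial counterpart binds a ribosomal RNA of the large subunit, gave 879.8, 676.4 and 1051.4 at 16-20 somites, 408.4, 683.9 and 568.4 at 21-25, and 505.8, 485.8 and 471.7 at 26-30. The 26-30 somites pools were tight and below every 16-20 somites pool, while 21-25 somites replicate 2 overlapped the lowest of these. Over the whole interval it differed by −0.78 ± 0.24 (SE, adjusted p = 0.351 in limma).

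Mrpl12 forms the flexible stalk that recruits translation factors. It gave 816.6, 1293.2 and 1389.2 at 16-20 somites, 410.1, 385.5 and 656.2 at 21-25, and 730.7, 631.9 and 683.4 at 26-30. The 21-25 somites pools included the lowest values and the first stage stood above both others, with a difference of −1.23 ± 0.27 (SE, adjusted p = 0.317 in limma) in the first step. Over the whole interval the difference was −0.72 ± 0.27 (adjusted p = 0.374).

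**Figure D3:**
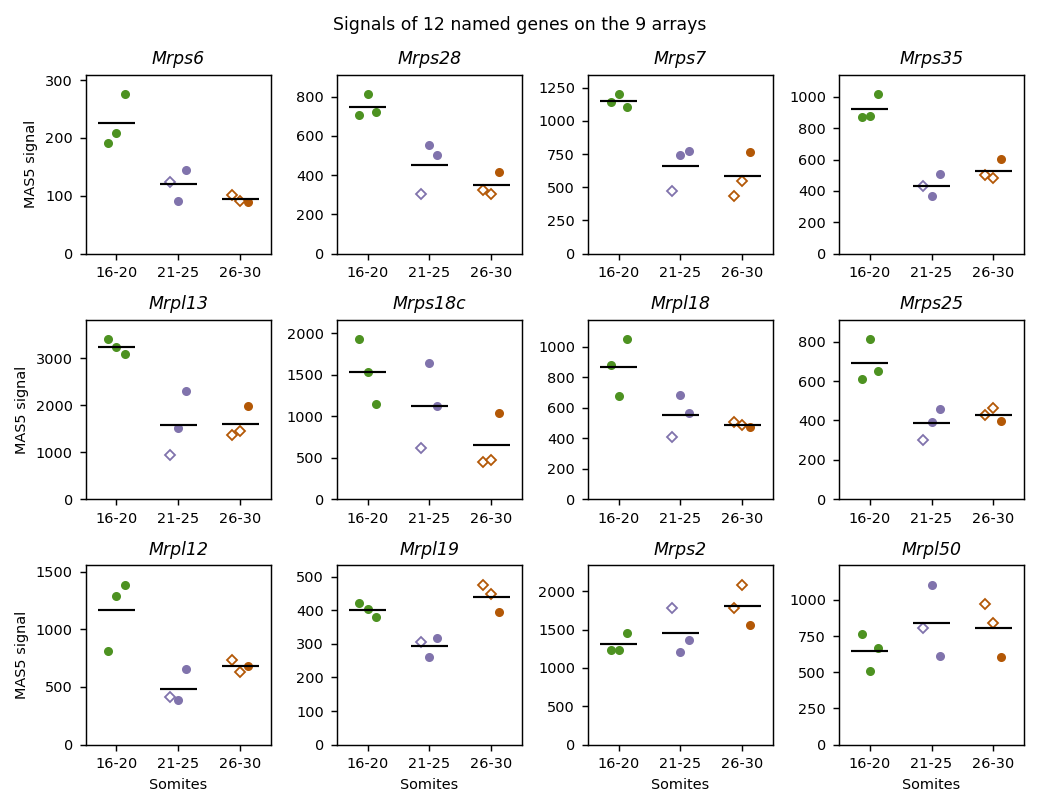
MAS5 signal of 12 mitochondrial ribosomal protein genes on each array, by somite stage, with the stage mean as a black bar and narrow-range arrays as open diamonds. In Mrps6, Mrps28, Mrps7, Mrps35, Mrpl13, Mrps25 and Mrpl12 the 3 arrays at 16-20 somites lie above all 6 later arrays. Mrps2 and Mrpl50 have higher means at 26-30 somites than at 16-20.

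Between 21-25 and 26-30 somites the genes were balanced around 0. The median difference of this second step was 0.05, with 35 of 74 below 0 beside 49.1% of all genes, and the medians were 0.03 for the large and 0.10 for the small subunit. Limma called 0 of 74 and 0% of all genes, with 0.998 as the smallest adjusted p of the 74. At an unadjusted p under 0.05, 1 gene was higher and 0 were lower, beside 2.05% and 2.04% of all genes (4.09% in either direction). Without 21-25 somites replicate 1 the genes lower in this step numbered 11, beside 3.23% of all genes, and with array weights 10, beside 8.16%. In 5 genes (Mrpl14, Mrpl19, Mrpl28, Mrps9 and Mrps23) all 26-30 somites arrays lay above all 21-25 somites arrays, beside 4.53% of all genes, and in 0 below them, beside 4.84%. The sign of the small median was not stable: it was −0.11 when 21-25 somites replicate 1 was left out, −0.03 when 26-30 somites replicate 3 was, and −0.01 when the narrow-range arrays were.

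Mrpl19, the counterpart of bacterial L19, had the smallest p of the second step. It gave 421.4, 404.7 and 381.3 at 16-20 somites, 307.1, 260.2 and 318.2 at 21-25, and 477, 447.6 and 396.2 at 26-30. The middle stage was lowest and overlapped neither of the others, with a second-step difference of 0.54 ± 0.20 (SE, adjusted p = 0.998 in limma) and a whole-interval difference of 0.12 ± 0.20 (adjusted p = 0.842).

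Mrpl2, which in bacteria sits beside the catalytic centre of the large subunit, gave 1621.1, 1655.4 and 1719.2 at 16-20 somites, 875.2, 1446.2 and 1138.2 at 21-25, and 1591.6, 1406.7 and 1761.3 at 26-30. The first and last stages overlapped, and 26-30 somites replicate 2 lay just under 21-25 somites replicate 2. Its second-step difference was 0.47 ± 0.22 (SE, adjusted p = 0.998 in limma). Mrps31, without a bacterial counterpart, gave 1215.5, 1244.9 and 1108.8 at 16-20 somites, 670.5, 527.9 and 722 at 21-25, and 614, 1081.2 and 1162.9 at 26-30. Its 26-30 somites values were split, with replicate 1 among the 21-25 somites values, and the second-step difference was 0.52 ± 0.26 (adjusted p = 0.998).

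A contrast of the second step against the first asked whether the 2 steps differed. Limma called 0 of the 74 and 0% of all genes, with a smallest adjusted p of 0.755 among the 74, and 14 had an unadjusted p under 0.05, beside 6.31% of all genes. The contrast was above 0 for 61 of the 74, beside 50.5% of all genes, and the 21-25 somites arrays enter both steps. The F test for any difference among the 3 stages also called 0 of 74 and 0% of all genes. Its smallest adjusted p was 0.429, and 19 of the 74 had an unadjusted p under 0.05, beside 9.69% of all genes.

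Of the 74 genes 8 ran the other way over the whole interval, with differences above 0. Mrpl38 gave 97.7, 172 and 123.5 at 16-20 somites, 368.5, 105.2 and 107.1 at 21-25, and 247.8, 257.7 and 128 at 26-30. Its 3 highest values were those of the narrow-range arrays. The difference was 0.57 ± 0.41 (SE, adjusted p = 0.604 in limma), and without those arrays it was −0.0012.

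Mrps2, the counterpart of bacterial S2, gave 1234, 1237.4 and 1459.7 at 16-20 somites, 1786, 1211.5 and 1362.8 at 21-25, and 1780.7, 2085 and 1559.8 at 26-30. Every 26-30 somites array lay above every 16-20 somites array, with a difference of 0.45 ± 0.22 (SE, adjusted p = 0.465 in limma). Its highest values, 1786, 1780.7 and 2085, were those of the narrow-range arrays. Another Mrps2 probe set gave −0.42. Mrpl50, a large-subunit protein without a bacterial counterpart, gave 762.3, 510.8 and 665 at 16-20 somites, 807.9, 1105.5 and 614.5 at 21-25, and 972, 838.1 and 606 at 26-30. Its stages overlapped and the difference was 0.30 ± 0.27 (adjusted p = 0.690), while another probe set gave −0.61.

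Probe sets of 1 gene did not always move together. Of the 74 genes 33 had several probe sets, and in 19 the sign over the whole interval differed between them. In 8 of these (Mrpl19, Mrpl33, Mrpl38, Mrpl42, Mrpl51, Mrpl52, Mrps11 and Mrps25) every probe set that disagreed was below the filter. A second probe set above the filter was present in 26 genes, of which 11 disagreed among such probe sets. In 7 of the 11 the chosen probe set was below 0, at −0.05 for Mrpl15, −0.06 for Mrpl44, −0.45 for Mrpl17, −0.56 for Mrps14, −0.57 for Mrpl57, −0.65 for Mrpl35 and −0.66 for Mrpl34. The other 4 of the 11 were Mrpl9 at 0.03, Mrpl1 at 0.15, Mrpl50 and Mrps2. When all probe sets of a gene were averaged, the median of the 74 was −0.37 over the whole interval, with 67 below 0. The chosen probe sets of 9 genes carry the suffix s or x, which marks probes that can match other transcripts, among them those of Mrpl19 and Mrpl38.

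The 2 subunits and the evolutionary classes of their proteins were then set side by side, by counts and medians only. The 44 genes with a direct bacterial counterpart, Mrps18c among them, had a median of −0.44 over the whole interval, with 38 below 0, and the 29 specific to mitochondria, Mrps18a and Mrps18b among them, had −0.48, with 27 below 0. Within the large subunit the medians were −0.42 for 29 genes with a bacterial counterpart and −0.48 for 18 without. Within the small subunit they were −0.67 for 15 and −0.48 for 11. Structural work places the proteins of Mrps18a and Mrps30 in the large subunit, and the Mrps36 protein in the 2-oxoglutarate dehydrogenase complex. With these 3 moved, the medians were −0.44 for the large and −0.59 for the small subunit. Mrps30 itself differed by −0.16 ± 0.21 (SE, adjusted p = 0.787 in limma) and Mrps36 by −0.54 ± 0.27 (adjusted p = 0.469).

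On each array, the median deviation of the 74 genes from their own means followed the stages loosely. It was 0.23, 0.33 and 0.35 at 16-20 somites, −0.54, −0.04 and 0.03 at 21-25, and −0.18, −0.23 and 0.04 at 26-30. The medians of all tested genes lay between −0.06 and 0.12, so the 3 early arrays stood above that range and the 3 narrow-range arrays below it. On the wide-range later arrays the 74 lay near their own means. Large-subunit and small-subunit medians had the same sign on 8 of the arrays, the exception being 21-25 somites replicate 2, with 0.09 for the large and −0.16 for the small subunit. That array was the lowest for 17 genes (23.0%, beside 21.1% of all genes) and the highest for 17 others (23.0%, beside 14.8%). On 21-25 somites replicate 1, 37 genes (50%) were at their lowest, as were 13.2% of all genes.

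**Figure D4:**
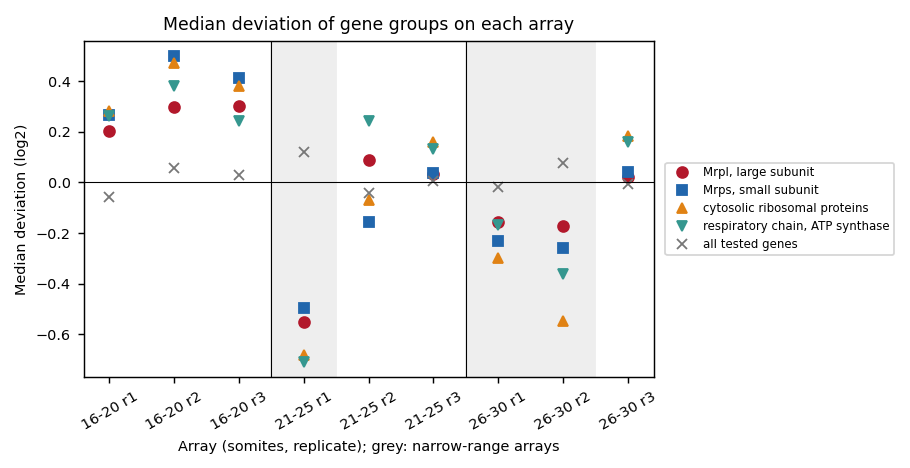
Median over each gene group of log2(signal + pseudocount) minus the gene's mean over the 9 arrays, by array, with narrow-range arrays on grey. Large-subunit and small-subunit genes lie above 0 on the 3 arrays at 16-20 somites and are lowest on 21-25 somites replicate 1, beside the cytosolic ribosomal proteins and the respiratory chain genes.

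Across the 9 arrays the 74 genes varied together. The median Pearson r between pairs was 0.50, with 0.47 within the large and 0.57 within the small subunit, beside 0.02 over pairs of all tested genes, as a description over 9 arrays whose range and stage all genes share. It was 0.75 for 47 cytosolic ribosomal protein genes and 0.61 for 76 genes of the respiratory chain and ATP synthase. The correlation of a gene with the median of the other genes was over 0.5 for 58 genes and below 0 for 6, namely Mrpl38 (−0.77), Mrps2 (−0.71), Mrpl1 (−0.58), Mrpl50 (−0.54), Mrpl10 and Mrps15. Mrpl13 had a value of 0.96 by this measure, Mrps16 0.94 and Mrps7 0.92.

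The 2 gene sets most like the mitochondrial ribosomal proteins in function had differences of similar size. Cytosolic ribosomal protein genes had a median of −0.55 over the whole interval, with 44 of 47 below 0, and respiratory chain and ATP synthase genes −0.45, with 69 of 76 below 0. Their array medians ran from −0.68 to 0.47 and from −0.71 to 0.38, in both cases with the lowest value on 21-25 somites replicate 1. No test of a difference between these sets and the 74 was made.

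Other genes that serve the same ribosome were read from lists, in which limma called 0 genes over the whole interval. Of the mitochondrial ribosomal proteins with other symbols, Chchd1, Dap3 and Ptcd3 were tested and all 3 were below 0, with −0.95 ± 0.54 for Chchd1, −0.32 ± 0.22 for the GTPase Dap3 and −0.25 ± 0.22 for Ptcd3 (SE, adjusted p of 0.516, 0.591 and 0.673 in limma). Gadd45gip1 was below the filter. The list of mitochondrial translation factors had 9 of 9 genes below 0, with a median of −0.20, and 0 had an unadjusted p under 0.05. It includes Pdf, Mtfmt and Oxa1l, which are not translation factors and differed by −0.20, −0.26 and −0.12. Gfm2, which helps to recycle ribosomes, differed by −0.36 ± 0.22. A list of mitochondrial aminoacyl-tRNA synthetases, which charge transfer RNAs, and of amidotransferase subunits had a median of −0.03, with 6 of 12 below 0. The amidotransferase subunits Qrsl1, Gatc and Gatb, which are not synthetases, differed by 0.58, 0.31 and 0.09. Gars and Kars, which also encode the cytosolic enzymes, differed by −0.43 and −0.10. Fars2, the phenylalanine enzyme, differed by −0.59 ± 0.22 (adjusted p = 0.374). In Chchd1 and Fars2 the narrow-range arrays lay below all other arrays.

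Ribosome assembly and ribosomal RNA modification genes had a median of −0.12, with 13 of 19 below 0. Among the 13 was Ddx18, at −0.10 ± 0.22 (SE), a helicase of the nucleolus, where cytosolic ribosomes are assembled. Nsun4, a methyltransferase of the small ribosomal RNA that also acts in subunit joining, gave 266.1, 278.9 and 342.8 at 16-20 somites, 414.2, 223.3 and 434.9 at 21-25, and 469.1, 541.6 and 513.7 at 26-30. Its last stage lay above all other arrays, at 0.74 ± 0.26 (SE, adjusted p = 0.366 in limma). Eral1, a chaperone of the small ribosomal RNA, differed by 0.78 ± 0.37 and Ngrn by −0.67 ± 0.30. Among 19 genes of mitochondrial DNA upkeep and transcription 12 were below 0, with a median of −0.15. Tfb2m, an initiation factor of mitochondrial transcription, differed by 0.89 ± 0.28 (adjusted p = 0.351) and Slirp, which stabilises mitochondrial messengers, by −1.28 ± 0.55 (adjusted p = 0.426). In Tfb2m and Eral1 the narrow-range arrays lay above all other arrays, and in Slirp below them.

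Genes of the mitochondrial protein import machinery had a median of −0.28, with 19 of 25 below 0. Timm13, a small chaperone between the 2 membranes, gave 2280.4, 3774.1 and 3065.4 at 16-20 somites, 501.2, 1544.4 and 1673.2 at 21-25, and 820.5, 726.5 and 1684.9 at 26-30. The early stage lay above all later arrays and the difference was −1.55 ± 0.44 (SE, adjusted p = 0.342 in limma). Timm17a differed by −1.07 ± 0.34 and Timm10 by −1.05 ± 0.45. In Timm13, Timm17a and Timm10 the narrow-range arrays lay below all other arrays.

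Of 12 listed regulators of nuclear genes for mitochondria on the array 9 were tested, with a median of 0.12 and 4 below 0. Gabpa, which encodes the DNA-binding ETS subunit of GABP, gave 1056.8, 534.5 and 818.9 at 16-20 somites, 1942.3, 858.3 and 1084.5 at 21-25, and 1375.1, 1699.8 and 1134.1 at 26-30. All 26-30 somites arrays lay above all 16-20 somites arrays, with a difference of 0.82 ± 0.33 (SE, adjusted p = 0.393 in limma). Its highest values, 1942.3, 1375.1 and 1699.8, were those of the narrow-range arrays. The wide-range array at 26-30 somites gave 1134.1, beside 1056.8 on 16-20 somites replicate 1. Nrf1, which encodes the factor of that name, gave 462, 620 and 636.7 at 16-20 somites, 584.6, 665.1 and 385.4 at 21-25, and 384.6, 437.6 and 375.3 at 26-30. Its 26-30 somites arrays lay below all 16-20 somites arrays, with a difference of −0.48 ± 0.24 (adjusted p = 0.469).

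Promoters of the genes were then read for the motifs of such factors. RefSeq windows of the GRCm38.p6 build, from 250 bases before to 50 after the start, were matched by symbol for 65 of the 74 genes. The letters CCGGAAG (an ETS core, as bound by GABPA), GCATGCGC (NRF1) and AAGATGGC (YY1) were searched on both strands, and no 2 of these matches overlapped in any of the 65. At least 1 of the 3 was found in 35 of the 65 windows (53.8%), beside 17.3% of the windows of all 17492 protein-coding genes. The ETS core was in 23 (35.4%, beside 11.9% of coding genes), the YY1 letters in 11 (16.9%, beside 3.22%) and the NRF1 letters in 8 (12.3%, beside 3.61%). The 41 matched windows of cytosolic ribosomal protein genes held the ETS core in 48.8%, the YY1 letters in 9.76% and the NRF1 letters in 2.44%. For the 61 matched respiratory chain and ATP synthase windows the shares were 26.2%, 13.1% and 14.8%, and these shares were not tested against each other. The CCAAT box was in 38.5%, beside 39.0%, the letters TATAAA in 6.15%, beside 13.3%, and the letters CACGTG in 7.69%, beside 7.90%. The GC box GGGCGG was in 52.3% of the windows, beside 46.3%.

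A few windows are shown, read along the strand of the gene with matches in capitals: the 3 Mrps18 paralogues, Mrps7 and Mrpl18 from the genes described above, and Mrps11, which shares its start region with a large-subunit gene. Mrps7, on the plus strand at chr11:115603890-115604189, holds the YY1 letters. Mrps18c, on the plus strand at chr5:100798509-100798808, and Mrpl18, on the minus strand at chr17:12916042-12916341, hold the ETS core. In Mrpl18 the core lies over the start of Tcp1, a gene on the other strand that starts 238 bases upstream. Mrps18a, on the plus strand at chr17:46110754-46111053, holds an ETS core and the YY1 letters. Mrps18b, on the minus strand at chr17:35916391-35916690, holds an ETS core and the NRF1 letters at 2 places. Mrps11, on the plus strand at chr7:78782881-78783180, holds the YY1 letters in reverse complement. There they lie inside Mrpl46, which starts 42 bases upstream of Mrps11 on the other strand.
Mrps7: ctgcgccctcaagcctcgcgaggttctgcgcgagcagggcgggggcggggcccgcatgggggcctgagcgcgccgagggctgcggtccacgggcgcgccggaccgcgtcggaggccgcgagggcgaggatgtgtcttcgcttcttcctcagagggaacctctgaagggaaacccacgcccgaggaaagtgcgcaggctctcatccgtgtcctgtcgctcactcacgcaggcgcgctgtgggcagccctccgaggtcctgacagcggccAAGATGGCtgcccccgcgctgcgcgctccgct
Mrps18c: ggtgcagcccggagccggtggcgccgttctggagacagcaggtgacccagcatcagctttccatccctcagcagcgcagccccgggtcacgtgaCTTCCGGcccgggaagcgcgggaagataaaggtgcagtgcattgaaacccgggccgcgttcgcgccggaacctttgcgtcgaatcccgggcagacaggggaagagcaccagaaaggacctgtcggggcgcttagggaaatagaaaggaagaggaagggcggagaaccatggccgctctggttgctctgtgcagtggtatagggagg
Mrpl18: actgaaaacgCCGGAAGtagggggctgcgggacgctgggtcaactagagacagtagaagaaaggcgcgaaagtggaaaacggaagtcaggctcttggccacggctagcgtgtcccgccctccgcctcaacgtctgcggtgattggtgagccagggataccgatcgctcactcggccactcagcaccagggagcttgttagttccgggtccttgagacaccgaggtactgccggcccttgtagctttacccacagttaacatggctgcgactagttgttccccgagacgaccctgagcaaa
Mrps18a: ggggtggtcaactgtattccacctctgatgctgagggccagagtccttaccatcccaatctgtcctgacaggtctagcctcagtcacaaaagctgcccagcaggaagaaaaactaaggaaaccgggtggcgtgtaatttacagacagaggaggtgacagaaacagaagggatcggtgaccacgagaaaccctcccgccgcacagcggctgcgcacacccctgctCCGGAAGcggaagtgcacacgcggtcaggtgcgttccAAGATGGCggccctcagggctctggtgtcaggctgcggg
Mrps18b: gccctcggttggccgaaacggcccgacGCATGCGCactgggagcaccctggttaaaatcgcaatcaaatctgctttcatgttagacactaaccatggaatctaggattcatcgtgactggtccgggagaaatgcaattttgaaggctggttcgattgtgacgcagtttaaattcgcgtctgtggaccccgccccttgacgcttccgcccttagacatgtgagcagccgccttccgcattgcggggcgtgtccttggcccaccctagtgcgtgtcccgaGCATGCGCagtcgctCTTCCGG
Mrps11: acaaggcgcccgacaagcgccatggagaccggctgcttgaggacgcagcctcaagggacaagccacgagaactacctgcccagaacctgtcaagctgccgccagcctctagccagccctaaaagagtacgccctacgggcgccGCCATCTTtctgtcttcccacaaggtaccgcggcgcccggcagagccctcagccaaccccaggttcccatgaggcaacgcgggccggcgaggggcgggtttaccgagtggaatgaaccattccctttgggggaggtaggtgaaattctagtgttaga

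All 3 Mrps18 paralogues hold an ETS core, alone in Mrps18c, with the YY1 letters in Mrps18a and with the NRF1 letters in Mrps18b. The windows of Mrps6, Mrps25, Mrpl12, Mrpl2, Mrps31, Mrps2 and Mrpl50 held none of the 3 motifs, and these 7 include genes with differences on either side of 0. The 23 genes with an ETS core had a median of −0.59 over the whole interval, and those without had −0.41. With and without the YY1 letters the medians were −0.54 and −0.45, and with and without the NRF1 letters −0.27 and −0.49. These medians were not tested against each other, and a match in letters is not a measured binding site.

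Many of the genes start back to back with another gene. In 22 of the 65 (33.8%) a protein-coding gene on the other strand starts within 1000 bases upstream, beside 8.48% of 17492 coding genes. Mrpl46 and Mrps11, a large-subunit and a small-subunit gene, face away from each other with starts 42 bases apart, in the region printed above for Mrps11. Mrpl46 gave 2296.5, 3166.7 and 3068 at 16-20 somites, 1117.2, 1464.4 and 2225.6 at 21-25, and 1856.3, 1844.8 and 1780.7 at 26-30. Mrps11 gave 165.6, 201.8 and 249.7 at 16-20 somites, 104.7, 60.2 and 162.9 at 21-25, and 78.5, 98.8 and 169.8 at 26-30. In Mrpl46 the early arrays lay above all later ones, and in Mrps11 26-30 somites replicate 3 overlapped the lowest early array. The differences over the whole interval were −0.62 ± 0.26 for Mrpl46 and −0.75 ± 0.33 for Mrps11 (SE, adjusted p of 0.412 and 0.432 in limma). Another Mrps11 probe set, below the filter, differed by 0.85.

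Of 12 such pairs whose partner was tested, 9 partners were below 0 over the whole interval, beside 49.1% of all genes. The partner median was −0.28. These pairs count Mrpl46 and Mrps11 once from each side, and both are themselves mitochondrial ribosomal protein genes. Mrpl49 starts 192 bases from Fau, which encodes a cytosolic ribosomal protein fused to a ubiquitin-like one. Fau differed by −1.12 (adjusted p = 0.385 in limma) and Mrpl49 by −0.47 ± 0.33 (SE, adjusted p = 0.589). Mrpl32 lies 205 bases from the proteasome gene Psma2, and they differed by −0.25 and −0.67. Mrpl18 and the chaperonin gene Tcp1, 238 bases apart, differed by −0.78 and −0.35, and Mrpl40 and the histone chaperone gene Hira, 113 bases apart, by −0.48 and −0.59. Ighmbp2, Pnpla7 and Eme1, the partners of Mrpl21, Mrpl41 and Mrpl27, differed by −0.02, −0.02 and −0.22, beside −0.63, −0.77 and −0.79. In 3 pairs the partner lay above 0, with −0.59 for Mrpl51 and 0.48 for Ncapd2, −0.07 for Mrpl2 and 0.18 for Klc4, and −0.71 for Mrpl47 and 0.06 for Ndufb5.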

How the data were processed

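Total RNA of 9 pools, 3 per somite stage, was profiled on 1-colour Affymetrix arrays. Per the labels' protocols, 100 ng of RNA went through 2 rounds of amplification, which favours the 3' ends of transcripts. The authors deposited linear MAS5 intensity values, per the submitters' processing notes; no version or scaling target is given in the sources used. Precision is limited by the number of arrays.

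Of 22690 probe sets 20380 had 1 gene symbol, and each gene took its probe set with the highest mean. Intensities were used as deposited and taken to log2 after adding 26.1 (the 20th percentile of the table), and the dimmest 30% of genes by mean were left out. Stage means were fitted with limma 3.58.1 (lmFit, and eBayes with a trend) in R 4.3.3, with all p-values adjusted over 8675 genes, and the fit was tested on simulated data. Tables and promoter motifs were made with Python 3.11.15. Identical values were found in 0 pairs of arrays.

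Members were named in the text by small p in the fit over all genes (8 for the whole interval, 4 for each step), by the largest differences of opposite sign (3), and as the Mrps18 paralogues. Other genes are the 3 smallest p-values of a list or fewer. Mrpl21, Mrpl27, Mrpl32, Mrpl40, Mrpl41, Mrpl46, Mrpl47, Mrpl49, Mrpl51 and Mrps11 and the gene partners of the promoter account were chosen after their values were seen. The members and lists were chosen with earlier results of these data known.

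Alternatives were quantile normalization, median centring, pseudocounts of 6.525 and 104.4, a filter at the 50th percentile or none, a replicate block, array weights, untrended eBayes, averaged probe sets, the 6 compared arrays alone, each array left out, no narrow-range arrays, and each array's 99th percentile as a covariate. A fit without those arrays and 16-20 somites replicate 2 was added after seeing the data.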

Additional observations from a re-analysis of the deposited data

How the results depend on the processing

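Differences of the 74 genes over the whole interval and in the first step kept a median below 0 under every alternative run, and limma called 0 of the 74 in each comparison except with array weights. The replicate block, untrended eBayes and the 6 compared arrays alone cannot change these medians, since they leave the differences between stage means as they are. With array weights 18 of the 74 and 725 of all genes were called over the whole interval, 29 of all genes in the second step, and 10 of the 74 and 330 of all genes for any stage difference. All genes called over the whole interval numbered 4 with the 6 compared arrays, 1 with the 99th percentile as a covariate and 0 to 1 without each array in turn. In the first step they numbered 1 without the narrow-range arrays, 1 with the covariate and 0 to 2 without each array, for any stage 1 with the covariate and 0 to 2 without each array, and for the difference between the steps 0 to 3 without each array.

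Over the whole interval, the median of the 74 was −0.2406 without the narrow-range arrays and −0.2261 without 16-20 somites replicate 2 as well. The median of the large subunit was −0.2089 in the second of these fits, and that of the small subunit −0.2268 and −0.2311, or −0.3418 with the covariate. Without each array in turn the medians ran from −0.53 to −0.41 for the 74, −0.53 to −0.36 for the large and −0.66 to −0.46 for the small subunit.

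The second step had no stable sign. Its median over the 74 was −0.0676 with array weights, −0.0100 in both fits without the narrow-range arrays, and −0.1081 to 0.1372 without each array. For the large subunit it was −0.0951, −0.0294 in both, and −0.1645 to 0.1504, and for the small subunit −0.0617 with weights and −0.0506 to 0.1351 without each array. Of single genes over the whole interval, Mrpl38 was −0.0012 and Mrps18a 0.0438 without the narrow-range arrays, and Mrps18a 0.0193 without 16-20 somites replicate 2 as well. Mrpl50 was −0.0707 and −0.2238 in these fits and −0.1536 as the mean of its probe sets. Without each array in turn Mrpl38 ran from 0.4105 to 0.8541, Mrpl50 from 0.1463 to 0.4844 and Mrps18a from −0.5181 to −0.2062. In the second step Mrpl2 ran from 0.2948 (without 21-25 somites replicate 1) to 0.6488 and Mrps31 from 0.3492 to 0.7958 (without 26-30 somites replicate 1). Mrps18c ran from −1.1370 (without 26-30 somites replicate 3) to −0.4428 (without 21-25 somites replicate 2). The cause of these shifts was not tested.

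Arrays of the same replicate number deviated together with r between −0.283 and 0.257, so the number was not taken to pair the pools. With the replicate number as a block limma called 0 of the 74. Each number occurs once per stage, so the block cannot change the whole-interval median, which stayed at −0.4605. At an unadjusted p under 0.05, 20 of the 74 were lower over the whole interval and 25 in the first step, beside 5% and 5.43% of all genes.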
